A study of Rattus norvegicus with 21 samples.

Results

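The 10 genes described here carry growth and survival signals to the endothelial cells that line blood vessels. They are the vascular endothelial growth factors Vegfa, Vegfb and Vegfc, the receptors Flt1 and Kdr, the angiopoietins Angpt1 and Angpt2, the receptors Tek and Tie1, and the endothelial junction protein Pecam1. Their probe sets (groups of short probes read as 1 value per gene region) were taken by symbol: all that the platform annotation assigns to 1 of these genes, which were 14 of 31042 probe sets on the Affymetrix Rat Genome 230 2.0 array. Testing needed a signal above an array's 40th percentile on 3 or more arrays, which 12 of the 14 had. Each gene is described by its brightest probe set, and all 10 of these were tested. The annotation names 14217 genes in all.

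RNA was taken from anterior pituitary glands of males. The rats belonged to the inbred strains ACI, Brown Norway (BN) and Copenhagen (COP), and carried an empty implant (control) or an implant with 5 mg of the synthetic estrogen diethylstilbestrol (DES) at 9 weeks of age. All rats, controls included, received 50 mg/kg of the thymidine analog BrdU 4 hours before they were killed at 21 weeks, 12 weeks after implantation. ACI and BN rats were bought from Harlan and COP rats from Charles River, and each strain had 3 control and 4 DES arrays, 21 arrays in 6 groups. The series design takes each array as a biological replicate, but the notes on single samples speak of 2 independent replicates from 3 control males and 3 from 4 DES males, so the p-values below measure the spread between arrays, part of which may be technical. Values are scaled array signals (intensities), and a change is the difference of mean log2(signal + 16) with its standard error from limma. A gene was called when its p-value, adjusted over all 21858 tested probe sets of the comparison, was under 0.05.

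Vegfa, Vegfb and Vegfc are secreted ligands of receptor tyrosine kinases. Vegfa drives endothelial growth and permeability mainly through Kdr, Flt1 binds Vegfa and Vegfb and can hold Vegfa away from Kdr, and Vegfc acts on lymphatic vessels through Flt4 as well as on Kdr. Angpt1 activates Tek and quiets vessels, Angpt2 can compete with it and loosens them, and Tie1 is a partner of Tek with no ligand of its own that is generally agreed upon. The anterior pituitary is densely supplied with portal capillaries, and estrogen-driven growth of the gland in rats is a classic setting for the study of new vessels.

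The sequences before the starts of Vegfa and Kdr are shown because Vegfa rose with DES in every strain whereas Kdr went in opposite directions in ACI and BN. They are RefSeq sequences of rat build GRCr8 and come from 1 reference genome, so they show no strain variant. Of the 10 genes, 6 had a promoter in the table, Vegfa at 2 starts. The 250 bases before each start were searched on both strands for the hypoxia core ACGTG, the ETS core CGGAA, the Sp1 box GGGCGG, and an estrogen response element made of GGTCA and TGACC 3 bases apart. Capitals mark the matches. The Vegfa stretch, 250 bases at chr9:22452604-22452853 on the + strand, lies just before its start and held 3 Sp1 boxes. The Kdr stretch, 218 bases at chr14:32571813-32572030 on the + strand, is the part of its window that precedes the gene's outermost annotated start, so it stops short of the window's end, and it held 1 ETS core and 1 Sp1 box, each on the opposite strand.
Vegfa: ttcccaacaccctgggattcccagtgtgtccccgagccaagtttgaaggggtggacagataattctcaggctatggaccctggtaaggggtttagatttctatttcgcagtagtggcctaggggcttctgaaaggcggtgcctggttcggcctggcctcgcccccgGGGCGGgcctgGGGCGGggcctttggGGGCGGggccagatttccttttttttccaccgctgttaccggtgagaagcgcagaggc
Kdr: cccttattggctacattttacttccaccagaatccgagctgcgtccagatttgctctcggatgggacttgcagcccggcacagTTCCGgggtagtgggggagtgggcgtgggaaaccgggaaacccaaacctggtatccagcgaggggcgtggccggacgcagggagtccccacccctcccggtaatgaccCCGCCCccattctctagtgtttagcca

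An Sp1 box was present in 6 of the 7 windows, those of Vegfa (upstream start), Vegfb, Vegfc, Flt1, Kdr and Tie1, against 30.5% of all 33469 windows in the table. Not all of these lay before the gene's outermost annotated start: of the 3 boxes of Flt1 0 did, and of the 4 of Vegfb 2 did. The ETS core was found in the Kdr window alone, against 26.1% of all windows. None of the 7 held ACGTG, the only form of the hypoxia core searched, which 16.6% of all windows have. None held the estrogen response element as searched, which 0.0239% have. Other forms of either motif were not searched, so their absence is not shown. These matches describe letters in a short window and were not tied to any factor.

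The glands expressed the hormone genes of their label. Prl signals ran from 24379.6 to 68841.3, those of Gh1 from 20518.5 to 61190.2 and those of Cga from 21733.8 to 60341.9, whereas the probe set annotated as Pomc read 8.5 to 373.4. Array medians lay between 119.3 and 152.1 and the 40th percentiles between 67 and 90.6. Vegfa, Vegfb, Vegfc, Kdr, Tek and Tie1 exceeded the 40th percentile on all 21 arrays. Pecam1 did so on 19, Angpt2 on 15, Angpt1 on 14 and Flt1 on 13, so values of Flt1, Angpt1 and Angpt2 lie close to the dim end of the array. Pecam1 was dim as well, with a mean signal of 110.1 over the 21 arrays beside 116.1 for Angpt2.

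Vegfa rose with DES in all 3 strains. In ACI the signal was 458.7, 327.7 and 436.1 on the control arrays and 772.5, 756, 646.2 and 632.9 on the DES arrays. In COP it was 454.4, 481.3 and 477.4 without DES and 824.3, 700.5, 609.7 and 728.4 with it. In BN it was 487.3, 432.1 and 536 against 764.3, 809.4, 686.5 and 785. Every DES array was above every control array of its strain. The log2 change was 0.77 ± 0.13 (SE) for ACI, with an adjusted p of 4.28e-05, 0.58 ± 0.13 for COP (0.00108) and 0.64 ± 0.13 for BN (0.000699), and a two-sided exact permutation test over the 35 splits of 3 and 4 arrays gave 0.0286 in each strain, the smallest p it can give. The 3 responses differed by 0.19 or less on the log2 scale, with 95% intervals from -0.25 to 0.52 for ACI minus BN, -0.20 to 0.58 for ACI minus COP and -0.44 to 0.33 for COP minus BN.

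The dimmer Vegfa probe set, 1370081_a_at, rose in ACI (1.10 ± 0.39, adjusted p = 0.025) and BN (1.06 ± 0.39, adjusted p = 0.0424), but in COP its change was 0.31 ± 0.39 (adjusted p = 0.555). In COP the brighter probe set alone was called, and the median of the pair changed by 0.45 without a call; the probe sets were not tested against each other. In BN the dimmer probe set rested on 1 control array at 19.1, beside 134.5 and 125.7, and without that array its change was 0.37 and not called. The other arrays whose removal ended its BN call were BN DES 1 (0.97), BN DES 2 (0.84) and BN DES 4 (1.04), and in ACI its call ended without any of the 3 control arrays (1.07, 1.11 and 1.10) or without ACI DES 1 (0.98) or ACI DES 2 (1.01).

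The other growth factors had lower signals with DES. Vegfb, which binds Flt1, read 722, 636.7 and 786.7 in ACI controls and 574.1, 558.2, 579 and 330.1 in ACI DES rats, with no overlap. In BN it read 594, 545.9 and 461.7 against 401, 430.2, 290.4 and 348.4, again with no overlap. In COP the groups overlapped, at 528.2, 617.7 and 705.9 against 579.3, 586.2, 408.8 and 507.4. Vegfb fell by 0.50 on the log2 scale in ACI (SE 0.18, adjusted p = 0.028) and by 0.53 in BN (SE 0.18, adjusted p = 0.0314), and its change in COP was -0.24 ± 0.18 (adjusted p = 0.309). The ACI call was lost without ACI control 1 (-0.49), ACI control 3 (-0.43) or ACI DES 4 (-0.31), and the BN call without BN control 1 (-0.45), BN control 2 (-0.51), BN DES 3 (-0.42) or BN DES 4 (-0.51). Both calls were also lost with other scalings of the arrays: the changes were -0.29 in ACI and -0.44 in BN after median centring, and -0.33 and -0.39 after quantile normalization. The BN call was lost too in a fit of the BN arrays alone.

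Vegfc, the lymphatic growth factor, gave 2352.7, 2005 and 1853.2 in ACI controls and 1524.3, 1829.2, 1550.3 and 1495.8 with DES. In COP it gave 2146.1, 1982.5 and 1757.9 against 1719.5, 1589.9, 1290.3 and 1093.4. In BN it gave 2061.1, 2207.5 and 2030.4 against 1872.7, 1716.4, 1618.6 and 1529.5. All DES arrays were below all control arrays within each strain, though the gap was narrow in ACI and COP. Vegfc fell by 0.37 in ACI (SE 0.13, adjusted p = 0.0265) and by 0.48 in COP (SE 0.13, adjusted p = 0.00594), and in BN the change of -0.32 ± 0.13 did not pass (adjusted p = 0.0701). The exact permutation test gave 0.0571 in each strain. In ACI the call ended without ACI control 1 (-0.27), ACI DES 1 (-0.34), ACI DES 3 (-0.35) or ACI DES 4 (-0.34), and in BN the change was called without COP DES 4 (-0.32) or BN DES 1 (-0.37).

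**Figure D1:**
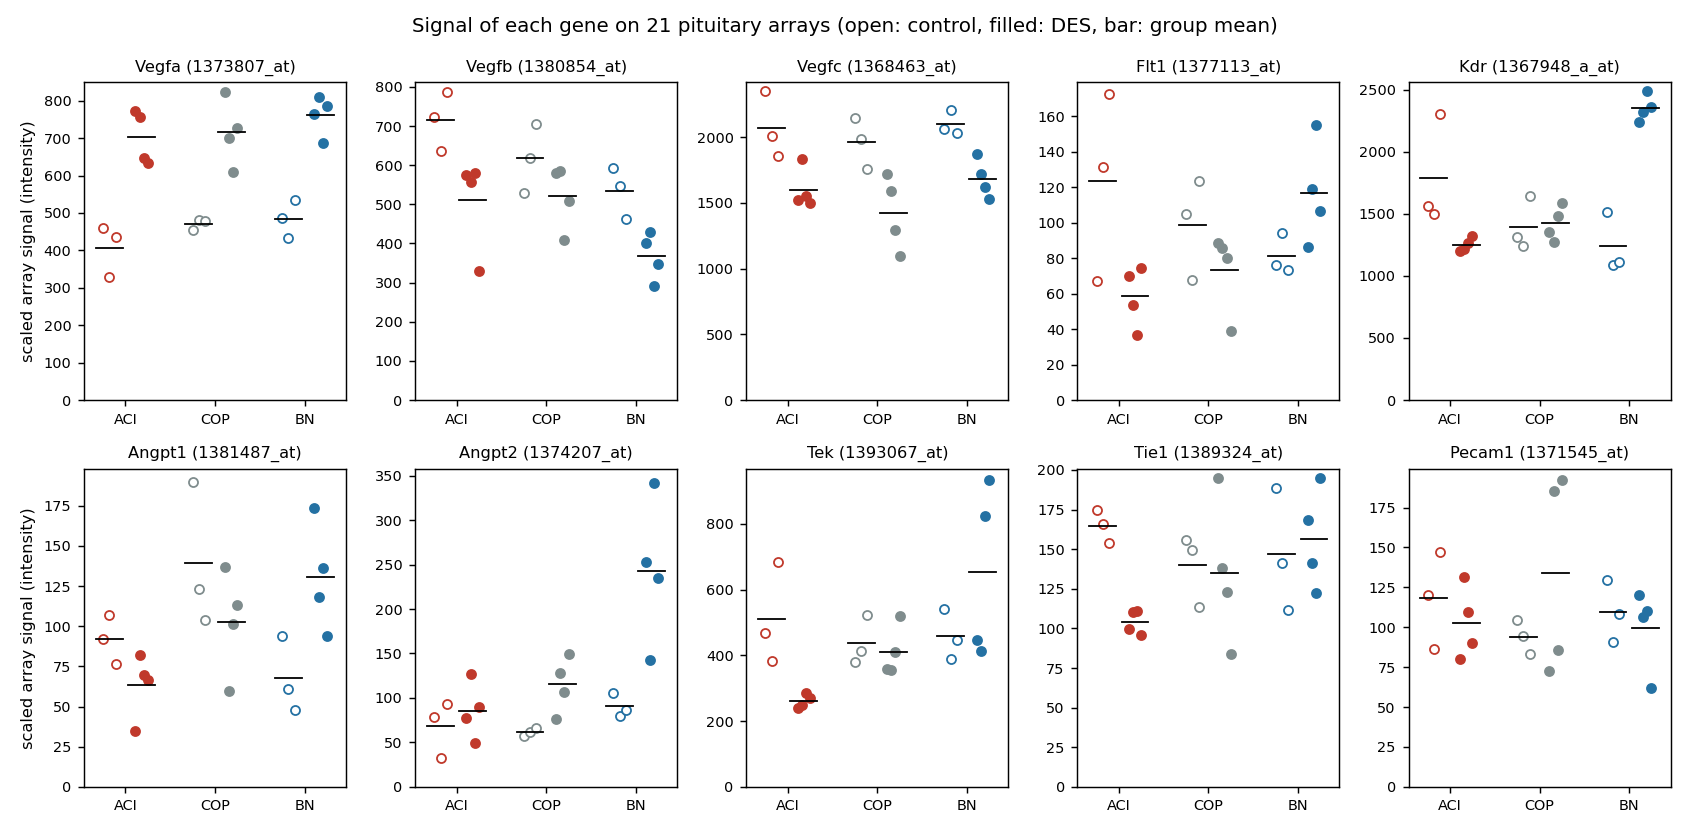
Scaled array signal (linear intensity, from 0) of the brightest probe set of each of the 10 genes on the 21 arrays, by strain, with open points for control arrays, filled points for DES arrays and a bar at each group mean. Vegfa rose in each strain, and for Kdr the 4 BN DES arrays stood at 2236.5 to 2487.9, above all other arrays except 1 ACI control at 2304.4.

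Kdr, the main signalling receptor for Vegfa, moved in opposite directions in ACI and BN. In ACI it read 1559.5, 1502 and 2304.4 in controls and 1200.8, 1215.2, 1264.8 and 1318 with DES. In BN it read 1516.9, 1086.5 and 1114.9 in controls and 2236.5, 2318.5, 2487.9 and 2361.7 with DES. In COP the values overlapped, at 1309.7, 1239.8 and 1642.2 against 1350.3, 1270.6, 1479.6 and 1587.4. The ACI and BN groups were each fully separated from their controls, downward in ACI and upward in BN. Kdr fell by 0.49 in ACI (SE 0.14, adjusted p = 0.00666) and rose by 0.93 in BN (SE 0.14, adjusted p = 2.39e-05), while in COP the change was 0.03 ± 0.14, with a 95% interval of -0.26 to 0.32. The exact permutation test gave its smallest p, 0.0286, in ACI and BN. The ACI call was lost without ACI control 3, the array at 2304.4, where the change was -0.29, and also after median centring of the arrays (-0.27), but not after quantile normalization (-0.46). The BN call held without any single array and under both scalings (1.01 and 0.97). In these whole glands, fewer cells of a type and less RNA per cell cannot be told apart. A further Kdr probe set, 1397868_at, read 2.8 to 77 over the 21 arrays and was not tested.

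Flt1, the receptor that can sequester Vegfa, was dim. It read 66.9, 131.4 and 172.4 in ACI controls and 69.9, 53.5, 36.5 and 74.5 with DES. In COP the signals were 105.2, 68 and 123.4 against 88.4, 85.7, 80.2 and 38.8, and in BN they were 76, 94 and 73.3 against 86.5, 119.3, 155 and 106.7. Control and DES values overlapped in every strain. Flt1 fell by 0.86 in ACI (SE 0.31, adjusted p = 0.0246; exact permutation p = 0.0857), and the changes in COP (-0.38 ± 0.31) and BN (0.43 ± 0.31) did not pass. The ACI call ended without ACI control 2 (-0.78), ACI control 3 (-0.60) or ACI DES 3 (-0.70). A second Flt1 probe set, 1369087_at, was above the 40th percentile on 5 arrays and changed by -0.35, -0.07 and -0.21 in ACI, COP and BN with no call. Another, 1370492_a_at, read 3 to 77 and was not tested.

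Tek, the angiopoietin receptor, fell in ACI. Its signals there were 466.7, 383.5 and 684 without DES and 238.8, 248.1, 284.3 and 269.2 with it. In COP they were 378.8, 413.3 and 521.6 against 359.3, 355.5, 410.3 and 520.3, and in BN 541.8, 388.3 and 446.5 against 445.7, 413.8, 825.2 and 932.2. The ACI groups did not overlap, whereas the BN DES arrays split into a pair within the control range and a pair well above it. Tek fell by 0.90 in ACI (SE 0.24, adjusted p = 0.00356; exact permutation p = 0.0286), and the changes in COP (-0.09 ± 0.24, adjusted p = 0.791) and BN (0.42 ± 0.24, adjusted p = 0.187) did not pass. The BN pair followed the array numbers: among arrays numbered 1 and 2 the BN change of Tek was -0.09, and among those numbered 3 and 4, with 1 control array whose spread is assumed to be that of the other groups, it was 0.95 and called. Over the 2 sets the ACI change was -0.76 and -1.26.

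Tie1, the partner of Tek, read 174.6, 165.9 and 154.1 in ACI controls and 99.8, 110.5, 110.8 and 95.6 with DES, with no overlap. In COP it read 155.8, 149.7 and 113.7 against 195, 137.9, 123.2 and 84.1, and in BN 188.8, 141 and 111.4 against 168.3, 141.1, 122.3 and 194.7, both with overlap. Tie1 fell by 0.59 in ACI (SE 0.23, adjusted p = 0.0366; exact permutation p = 0.0286), and the change was -0.08 ± 0.23 in COP and 0.09 ± 0.23 in BN. The ACI call ended without ACI control 1 (-0.55), 2 (-0.59) or 3 (-0.63) or without ACI DES 1 (-0.57) or 4 (-0.56).

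The angiopoietins rose in BN. Angpt1, the Tek agonist, read 94, 61 and 47.7 in BN controls and 173.7, 118.5, 136.3 and 93.7 with DES, where the lowest DES array just met the highest control. In ACI it read 92, 106.9 and 76.7 against 34.8, 81.8, 69.8 and 66.4, and in COP 190.1, 123.1 and 104.2 against 137.2, 59.9, 101.2 and 113.1. Angpt1 rose by 0.82 in BN (SE 0.29, adjusted p = 0.0351; exact permutation p = 0.0857), and the changes in the other strains, ACI at -0.48 ± 0.29 (adjusted p = 0.189) and COP at -0.39 ± 0.29 (adjusted p = 0.303), did not pass. The BN call ended without BN control 2 (0.78), BN control 3 (0.64), BN DES 1 (0.69) or BN DES 3 (0.79).

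Angpt2, which competes with Angpt1 at Tek, read 106, 79.4 and 87 in BN controls and 253, 142.5, 341.9 and 235 with DES. The BN groups did not overlap. In COP it read 56.8, 61.6 and 66.7 against 76.5, 128.3, 106.8 and 149.1, also with no overlap, and in ACI 78.6, 31.9 and 93.5 against 77.1, 126.4, 49.7 and 89.5. Angpt2 rose by 1.23 in BN (SE 0.31, adjusted p = 0.00411; exact permutation p = 0.0571), the largest change of the 10 genes in that strain. In COP the change of 0.73 ± 0.31 did not pass (adjusted p = 0.0664) but was called without ACI control 2 (0.73) or COP DES 1 (0.88), and in ACI it was 0.31 ± 0.31 (adjusted p = 0.44).

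Pecam1, an adhesion protein at endothelial junctions that is also carried by leukocytes and platelets, was called in no comparison. It read 120.4, 86.6 and 147.2 against 80.4, 131.6, 109.8 and 90.1 in ACI, 104.3, 94.4 and 83 against 72.4, 185.6, 85.6 and 192.6 in COP, and 129.5, 90.7 and 108.5 against 120, 106.6, 110.2 and 61.8 in BN. Values with and without DES overlapped throughout. The changes were -0.17 ± 0.29, 0.35 ± 0.29 and -0.14 ± 0.29 in ACI, COP and BN, and their 95% intervals ran from -0.78 to 0.44, -0.26 to 0.96 and -0.75 to 0.47.

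**Figure D2:**
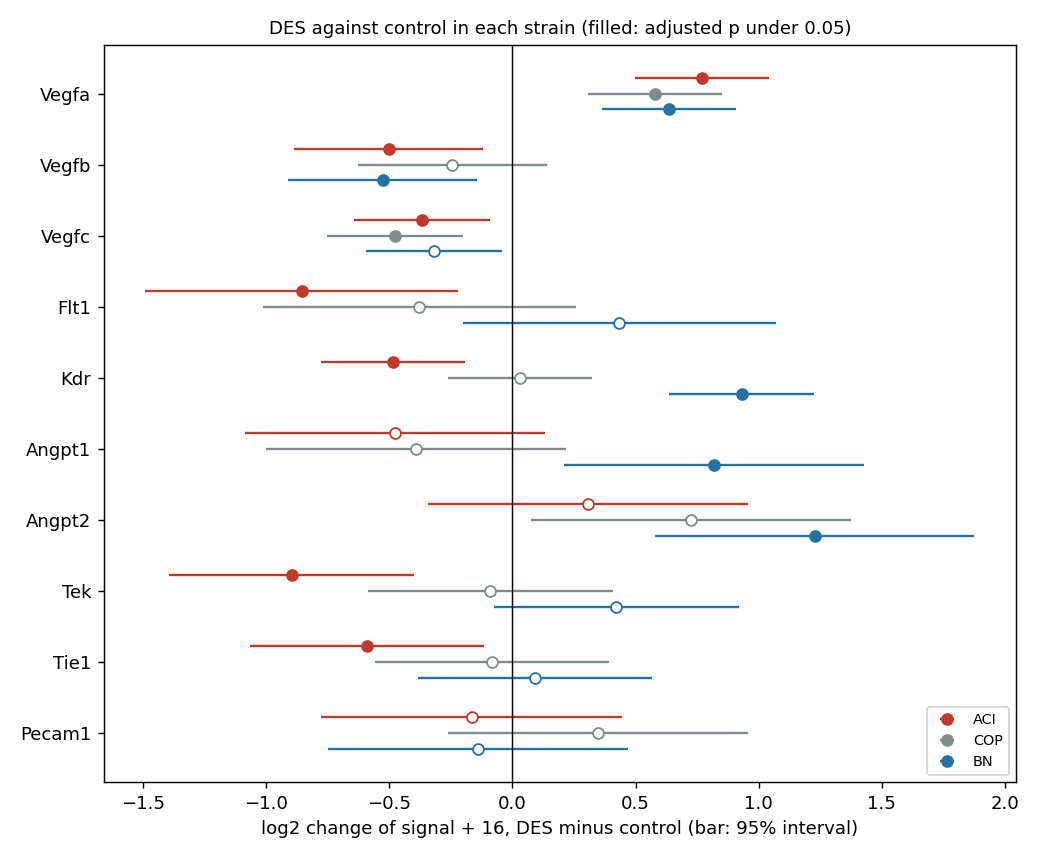
Log2 change of signal + 16 with DES (x axis) for each of the 10 genes (y axis) in ACI, COP and BN, with bars for 95% intervals and filled points for adjusted p under 0.05. Vegfa lies at 0.77, 0.58 and 0.64, whereas Kdr lies at -0.49 in ACI and 0.93 in BN and Tek at -0.90 in ACI and 0.42 in BN.

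Counted over the 10 genes, ACI had 1 called higher and 6 lower, COP 1 higher and 1 lower, and BN 4 higher and 1 lower. Across all tested probe sets, ACI had 19.8% called higher and 29.3% lower, COP had 17.9% and 25.2%, and BN had 14.0% and 19.4%. The median change of the 10 in ACI, COP and BN was -0.48, -0.09 and 0.43, beside -0.13, -0.09 and -0.06 over all tested probe sets. The counts depended on scaling. After median centring of the arrays, which moved the median of all probe sets from -0.13 to 0.08 in ACI and from -0.09 to 0.02 in COP, 2 of the 10 were called in ACI, Vegfa higher and Tek lower, and with quantile normalization 4 were called, Vegfa higher and Vegfc, Kdr and Tek lower. In BN both scalings ended the call of Vegfb and left 4 higher and 0 lower, and in COP centring added Angpt2 (0.83), giving 2 higher and 1 lower. Under both scalings every called gene kept its sign, but uncalled changes crossed 0 under at least 1 of them for Pecam1 in ACI and for Tek and Tie1 in COP. Over all probe sets the share of called changes that were higher in ACI was 40.4% as deposited and 57.4% after centring, and in COP and BN centring moved it from 41.6% to 51.4% and from 42.0% to 51.8%. The count of 7 in ACI fell to 3 without ACI control 3 and to 4 without ACI control 1 or ACI DES 4, the COP count of 2 became 3 without ACI control 2 or COP DES 1, and the BN count of 5 became 3 without BN control 2 or BN DES 3.

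Among control rats 1 of the 10 was called between ACI and BN, against 6.77% of all tested probe sets. It was Kdr, which was 0.51 ± 0.15 higher in ACI (adjusted p = 0.0419). That call rested on few arrays: it was lost on leaving out 9 of the 21 arrays in turn, with changes from 0.32 to 0.51, and the lowest value came without ACI control 3. No gene was called by limma between ACI and COP, where 1.20% of probe sets were, or between COP and BN, where 5.69% were. Before adjustment 1 of the 10 was under 0.05 in each, Kdr at 0.34 ± 0.15 for ACI over COP and Angpt1 at 0.89 ± 0.31 for COP over BN.

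Among DES rats, 5 of the 10 were lower in ACI than in BN and none was higher, against 31.3% of all tested probe sets called in either direction. How that share divides into higher and lower was not counted, so nothing is read from the common direction. Angpt2 was 1.35 ± 0.29 lower on the log2 scale (adjusted p = 0.00105), with mean signals of 85.7 in ACI and 243.1 in BN. Tek was 1.19 ± 0.22 lower (adjusted p = 0.000246), at 260.1 against 654.2. Kdr was 0.90 ± 0.13 lower (adjusted p = 1.43e-05), at 1249.7 against 2351. Angpt1 was 0.90 ± 0.27 lower (adjusted p = 0.0142), at 63.2 against 130.6, and lost its call without ACI DES 1 (-0.70). Flt1 was 0.84 ± 0.28 lower (adjusted p = 0.0274), at 58.6 against 116.9, and lost its call without ACI DES 2 (-0.82), ACI DES 3 (-0.68), BN DES 2 (-0.82) or BN DES 3 (-0.71). For all 5 every ACI DES array lay below every BN DES array. The same held for Tie1, which was not called, at 110.8 or less against 122.3 or more. How often all tested probe sets were separated in this way was not counted, so nothing is read from it. The split of 0 higher and 5 lower was 1 and 4 with either other scaling of the arrays, where Flt1 lost its call (-0.68 after centring and -0.69 after quantile normalization) and Vegfb was called higher in ACI (0.59 and 0.47). It was 1 and 5 with the replicate number as a block and 1 and 6 with numbers 1 and 2 against 3 and 4 as a block, where Vegfb and, in the second, Tie1 were added, and 1 and 2 with the 60th percentile filter, which left 5 of the 10 to test. Vegfb, at 0.44 ± 0.17 higher in ACI (adjusted p = 0.056), was called as well without ACI DES 4 (0.63), COP DES 3 (0.44) or BN DES 2 (0.51), and Tie1, at -0.51 ± 0.21 (adjusted p = 0.0737), without COP DES 4 (-0.51) or BN DES 3 (-0.61).

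By mean signal COP lay between ACI and BN after DES for Vegfa, Flt1, Kdr, Angpt1, Angpt2, Tek and Tie1, but not for Vegfb, Vegfc or Pecam1. Between COP and BN 3 of the 10 were called, against 22.2% of all tested probe sets. Kdr was 0.72 ± 0.13 lower in COP (adjusted p = 0.000327) and Angpt2 0.96 ± 0.29 lower (adjusted p = 0.0204), a call lost without COP DES 1 (-0.80) or BN DES 3 (-0.78). Vegfb was 0.48 ± 0.17 higher in COP (adjusted p = 0.0451), a call lost on leaving out any of 10 of the 21 arrays, with changes of 0.38 to 0.49. The count of 3 became 1 without BN DES 3. Tek, at -0.58 ± 0.22 (adjusted p = 0.0662), was called without COP DES 4 (-0.69), BN DES 1 (-0.73) or BN DES 2 (-0.76), and Vegfc, at -0.26 ± 0.12 (adjusted p = 0.144), without COP DES 1 (-0.36). Between ACI and COP no gene was called by limma, against 4.68% of all tested probe sets, and Angpt1 (-0.58 ± 0.27) and Tek (-0.62 ± 0.22) were under 0.05 before adjustment. For Tek all 4 ACI DES arrays, at 238.8 to 284.3, lay below all 4 COP DES arrays, at 355.5 to 520.3.

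The response to DES itself differed between ACI and BN for 4 of the 10, all lower in ACI. Of all tested probe sets 14.1% were called in either direction, and how these divide by direction was not counted. Each value is the log2 change in ACI minus that in BN, so these comparisons share arrays with those above. Kdr differed by -1.42 ± 0.20 (adjusted p = 4.91e-05) and Tek by -1.32 ± 0.34 (adjusted p = 0.0109), and neither call was lost on leaving out any single array. Among arrays numbered 1 and 2 alone the difference was -1.16 for Kdr and -0.67, not called, for Tek, against -1.94 and -2.21 for numbers 3 and 4, both called. Angpt1 differed by -1.30 ± 0.42 (adjusted p = 0.039) and lost its call without ACI control 1, ACI control 2, ACI DES 1, ACI DES 4, BN control 2, BN control 3, BN DES 1 or BN DES 3, with differences of -1.33 to -1.10. Flt1 differed by -1.29 ± 0.43 with an adjusted p of 0.0499, just under the threshold. It kept its call only when the array left out was ACI control 1, ACI DES 4, COP control 2, COP DES 4 or BN DES 1, and on leaving out the other 16 the difference was -1.38 to -1.03. Angpt2 (-0.92 ± 0.44, adjusted p = 0.185) and Tie1 (-0.68 ± 0.32, adjusted p = 0.179) did not pass. The count of 4 became 2 without ACI control 2, ACI DES 1, BN control 2, BN control 3 or BN DES 3, and 2 with either rescaling, under which Kdr and Tek kept their calls. The median over the 10 was -0.80, beside -0.06 over all tested probe sets.

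Between COP and BN the response of Kdr differed by -0.90 ± 0.20 (adjusted p = 0.00891), the single gene called, against 5.22% of all tested probe sets, and this held without any single array. Angpt1 differed by -1.21 ± 0.42 (adjusted p = 0.101). Between ACI and COP no response was called by limma, against 0.526% of all tested probe sets, and before adjustment 2 were under 0.05, Kdr at -0.52 ± 0.20 and Tek at -0.81 ± 0.34. The 3 ligands of the Vegf family showed no called difference in response between any pair of strains, and the 95% intervals of Vegfb, the widest among them, lay between -0.80 and 0.83 over the 3 pairs.

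**Figure D3:**
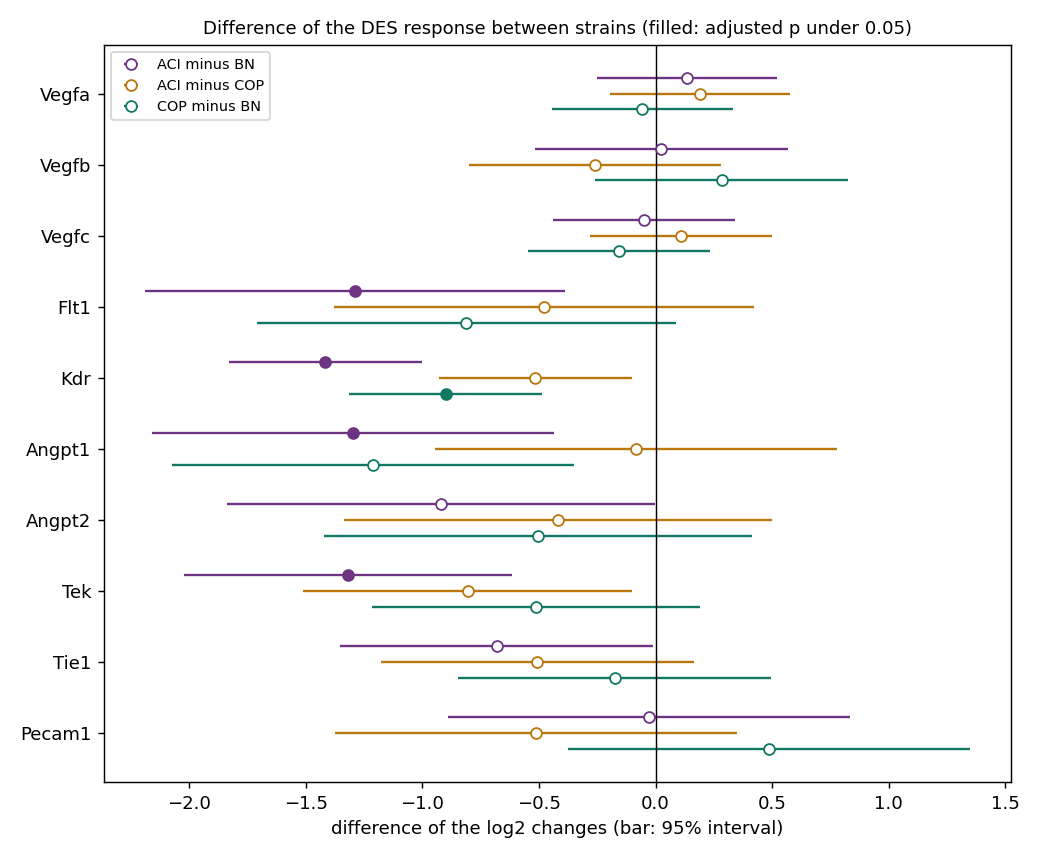
Difference of the log2 change with DES between strains (x axis) for the 10 genes (y axis), with bars for 95% intervals and filled points for adjusted p under 0.05. For ACI minus BN the receptors Kdr (-1.42), Tek (-1.32) and Flt1 (-1.29) and the ligand Angpt1 (-1.30) were called, and for COP minus BN Kdr (-0.90) was.

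Deviations of single arrays from their group means described how the genes vary together beyond strain and treatment. Over the 21 arrays Kdr and Tek had a Pearson r of 0.67, Vegfc and Tie1 of 0.64 and Angpt2 and Tek of 0.55. The most negative were those of Vegfc, at -0.62 with Tek and -0.57 with Kdr. These values are a description with no test, since all genes are read from the same arrays and share their scaling. The deviations also tended to follow array number in some groups. On the COP DES arrays in order, Vegfc read 1719.5, 1589.9, 1290.3 and 1093.4. Tek read 359.3, 355.5, 410.3 and 520.3 there, and Kdr 1350.3, 1270.6, 1479.6 and 1587.4. On the BN DES arrays Vegfc read 1872.7, 1716.4, 1618.6 and 1529.5, and Tek 445.7, 413.8, 825.2 and 932.2. No clear order was seen for Tek and Kdr in BN controls or for Vegfc in ACI DES arrays. The share of array number in these r values was not tested. Among 11749 other genes, those whose signal was most like that of Kdr over the 21 arrays were Pof1b (r = 0.85), Chsy1 (0.82), Tmem121 (0.81), Ids (0.81) and Mal (0.81), and the r of their deviations from group means was 0.41 to 0.53. Those most like Vegfa were Cited4 and Capn8 (0.93 each), Slc8a3 (0.93), Ncald (0.93) and Arhgap24 (0.92), with 0.33 to 0.66 within groups.

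The counts of the gene lists that follow are to be set beside the shares over all tested probe sets, which were 19.8% higher and 29.3% lower for ACI, 17.9% and 25.2% for COP and 14.0% and 19.4% for BN, and nothing particular to a list is read from them. The further genes of the pathway were read from a list of 11 other ligands, receptors and signal carriers, of which 8 were tested. ACI had 1 called higher and 3 lower (12.5% and 37.5%), COP 1 and 3, and BN 1 and 1. Grb10, an adaptor that binds activated receptor kinases including Kdr, fell in every strain, with log2 changes of -3.80 in ACI, -2.94 in COP, and -2.60 in BN. Shb, an adaptor of Kdr, fell in ACI (-1.61) and COP (-0.78), and its BN change was -0.30. Plcg1, the phospholipase that carries the Kdr signal onward, fell in ACI (-0.79) and COP (-0.75), with -0.34 in BN. Nrp1, a coreceptor of Kdr, rose by 0.53 in ACI and 0.70 in COP, with 0.25 in BN. The median of the 8 was -0.35, -0.02 and -0.02 in ACI, COP and BN, beside -0.13, -0.09 and -0.06 over all tested probe sets, and it turned positive in COP and BN with either other scaling. The response differed between ACI and BN for 3 of the 8 (37.5%), against 14.1% of all tested probe sets in either direction. These were Grb10, Shb and the Tek phosphatase Ptprb, all lower in ACI, by -1.19, -1.30 and -1.73.

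Markers of the cells that make up vessels did not all follow Kdr and Tek. Of 20 endothelial markers 17 were on the array and 13 were tested. With DES, ACI had 3 called higher and 5 lower (23.1% and 38.5%), COP 4 and 3, and BN 2 and 0. With either other scaling these were 3 and 3, 5 and 1, and 2 and 0. The median change of the 13 was -0.28, 0.15 and 0.18 in ACI, COP and BN. The summed signal of all 17 ran from 4038 to 4251 in ACI controls and 3522 to 3809 with DES, from 3601 to 3661 and 4247 to 5333 in COP, and from 3057 to 4158 and 3148 to 4618 in BN. As deposited the sum was lower with DES in ACI, higher in COP and overlapping in BN, but with each array scaled to a common median, a setting chosen after the data were seen, it was 3889 to 4014 in ACI controls and 4006 to 4258 with DES, so the ACI direction rests on the scaling. Plvap, the diaphragm protein of fenestrated capillaries, fell in ACI (-1.10) and COP (-0.51), and its BN change was -0.43. Emcn, an endothelial sialoprotein, fell likewise (-1.04 and -0.56), with -0.09 in BN, and both COP calls were lost with either other scaling. The endothelial transcription factor Sox18 rose by 1.66, 2.02 and 1.47 in ACI, COP and BN, the order used from here on, and Sox7 rose by 1.61 and 2.66, with 0.18 in BN. Vwf, Nos3, Sox17 and Ecscr were on the array but too dim to test. The part of cell makeup in the changes of Kdr and Tek was not tested.

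Of 8 tested pericyte and smooth muscle markers, ACI had 1 called higher and 1 lower (12.5% each), COP 3 and 1, and BN 2 and 0, with medians of 0.21, 0.16 and 0.33. Rgs5, a pericyte regulator of G protein signalling, rose by 1.41, 1.66 and 1.76. The potassium channel subunit Abcc9 rose in COP (1.14) and BN (1.35), with 0.25 in ACI, and its partner Kcnj8 rose in COP (1.17), with 0.30 in ACI and 0.67 in BN. Myh11, the smooth muscle myosin, fell in ACI (-1.29) and in COP (-0.80, not called with either other scaling), with -0.54 in BN. Summed signals of all 10 on the array overlapped between control and DES arrays in every strain, at 927 to 1108 against 961 to 1379 in ACI, 841 to 1123 against 1064 to 1373 in COP and 1109.9 to 1771 against 1329 to 1894 in BN. Scaled to a common median the ACI sums no longer overlapped, at 875 to 1068 against 1093 to 1579.

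Vegfa is a target of hypoxia-inducible factors, and of 13 tested genes of the hypoxia list ACI had 7 called higher and 2 lower (53.8% and 15.4%), COP 6 and 2, and BN 4 and 2, with medians of 0.53, 0.54 and 0.39. The glycolytic enzyme Ldha rose by 0.94, 0.90 and 1.46, and Pdk1, which holds pyruvate back from the mitochondria, by 1.43, 1.09 and 0.60. Epas1, a hypoxia-inducible factor first known from endothelium, fell (-2.29, -1.50 and -1.35), and so did the stress gene Ndrg1 (-1.63, -1.19 and -1.29).

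Notch signalling restrains vessel sprouting downstream of Vegfa. Of 8 tested genes, ACI had 1 called higher and 4 lower (12.5% and 50.0%), COP 2 and 3, and BN 1 and 2, with medians of -0.78, 0.02 and -0.11. The Notch target Hey2 fell (-2.02, -0.75 and -0.77), Hey1 fell in ACI (-1.13) and, as deposited but with neither other scaling, in COP (-0.55), with -0.38 in BN, and the receptor Notch1 fell in ACI (-1.17), with -0.31 in COP and -0.13 in BN. The ligand Jag2 rose by 1.82, 1.68 and 0.81. Dll4 and Notch4 were called with DES in no strain. Which cells of the gland carried the signals of this list was not tested.

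Of 10 other angiogenic factors tested, ACI had 1 called higher and 7 lower (4 lower after quantile normalization and 5 after centring), COP 0 and 4, and BN 1 and 3, with medians of -0.74, -0.41 and -0.27. Apln, the apelin peptide of sprouting vessels, fell (-2.20, -1.90 and -1.64). Cxcl12, a chemokine, fell in ACI (-1.27) and COP (-0.50, not called after centring) and rose in BN (0.91), the same directions as Kdr in ACI and BN, and its response differed between ACI and BN by -2.17 (adjusted p = 4.50e-06). Its receptor Cxcr4 fell (-0.55, -1.19 and -1.36), in ACI as deposited but with neither other scaling. Pttg1, the pituitary tumor transforming gene, rose by 1.96 in ACI, with 0.70 in COP and -0.45 in BN.

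Of 9 inhibitors of angiogenesis tested, ACI had 4 called higher and 2 lower (6 and 2 with either other scaling), COP 4 and 2, and BN 3 and 2, with medians of 0.33, 0.51 and 0.37. Serpinf1, which encodes pigment epithelium-derived factor, rose by 4.91, 5.08 and 3.45. Col18a1, the source of endostatin, rose by 2.87, 2.85 and 3.23. Timp3, which blocks Vegfa at Kdr as well as metalloproteases, fell (-1.31, -1.20 and -0.48), and the semaphorin Sema3f fell in ACI (-1.92) and COP (-0.70), with 0.05 in BN.

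Markers of other cells moved with DES beside these results. Of 7 tested folliculostellate markers, none was called higher and 6, 5 and 5 were called lower (medians -1.80, -0.98 and -1.05), and the summed signal went from 7661 to 8485 in ACI controls to 1606 to 2513 with DES, from 8593 to 9176 to 3805 to 4782 in COP, and from 11245 to 12630 to 6331 to 6960 in BN. The changes were -2.41, -1.58 and -1.19 for Anxa1, -2.24, -1.26 and -1.34 for the peptide carrier Slc15a2, -2.68, -1.41 and -1.42 for the stem cell factor Sox2, and -1.80, -0.96 and -1.05 for Aldoc. Of 10 leukocyte and macrophage markers, ACI had 8 called higher and 0 lower, COP 10 and 0, and BN 5 and 1 (medians 1.77, 1.85 and 0.43), with sums of 6041 to 6281 against 15469 to 18658 in ACI, 4487 to 5438 against 16020 to 21559 in COP, and 9035 to 10655 against 9389 to 15398 in BN. The complement gene C1qa rose by 2.46, 2.86 and 1.14, C1qb by 2.43, 2.96 and 1.06, C1qc by 2.65, 2.84 and 0.90, and the lysosomal marker Cd68 by 2.04, 1.90 and 0.43. Of 4 tested red blood cell genes, 1 was called higher and 1 lower in ACI and COP and 1 and 0 in BN, and the sums overlapped in every strain. Ahsp, which protects alpha globin, rose by 1.28, 1.49 and 1.52. Alas2, which starts heme synthesis in red cells, fell in ACI (-0.90) and COP (-0.91), with 0.12 in BN. After median centring no gene of this list was called lower in ACI or COP. After quantile normalization 1 was called lower in each. As deposited, Slc4a1 and Hbb were not called. What part these cells have in the levels of the 10 genes was not tested.

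**Figure D4:**
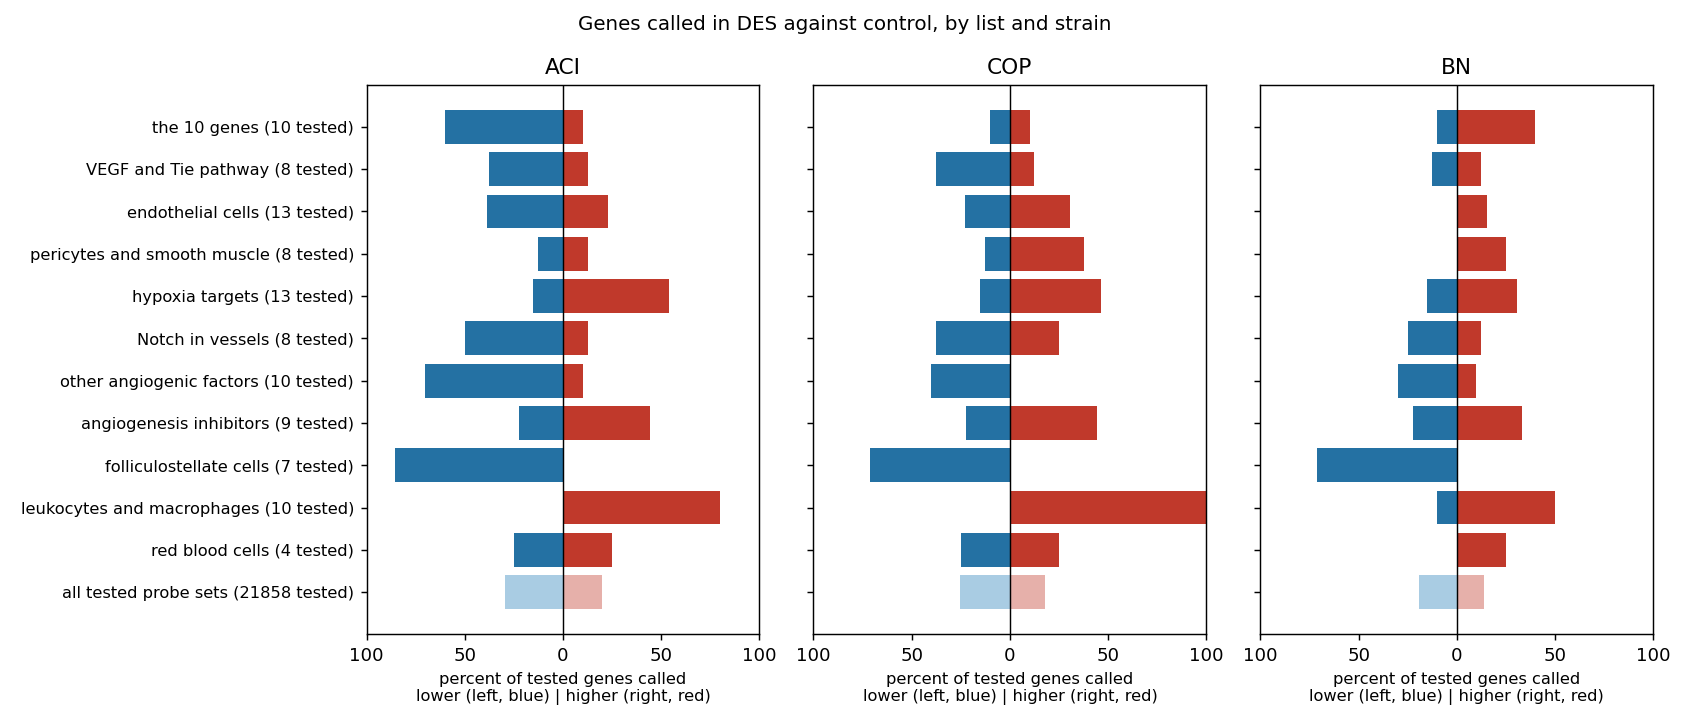
Percent of the tested genes of each list (y axis) called lower (blue, leftward) or higher (red, rightward) with DES in ACI, COP and BN, with all tested probe sets in paler bars at the bottom (29.3% lower and 19.8% higher in ACI). The 10 genes have 6 of 10 lower in ACI (3 after quantile normalization, 1 after median centring), 1 in COP and 1 in BN, the folliculostellate markers 6, 5 and 5 of 7 lower, and the leukocyte markers 8, 10 and 5 of 10 higher.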

How the data were processed

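Total RNA from anterior pituitary glands was labelled with biotin and hybridized in 1 colour to 21 Affymetrix arrays. Deposited was 1 linear intensity for each probe set and array, which the authors had scaled to a common trimmed mean (500.135 to 500.196 on every array, 2% trimmed at each end). The software that summarized the probes is not given in the sources used here. Equal values made up at most 0.254% of any array pair, and the number of arrays limits the precision.

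After removal of 57 control probe sets from 31099, 21858 were tested, those with signals over an array's 40th percentile on 3 or more arrays. With limma 3.58.1 (R 4.3.3), log2(signal + 16) of the 21 arrays was fitted by 6 group means (lmFit, and eBayes with a trend; 21.6 total degrees of freedom). Tests were two-sided, and p-values were adjusted after Benjamini and Hochberg in each of 12 comparisons. Symbols came from the platform annotation, in which 20826 probe sets had 1 symbol, 436 several and 9780 none. Figures were drawn with matplotlib.

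The 10 genes, the gene lists and the motifs were chosen with earlier results of these data known. Named were all 10 genes by their brightest probe set, up to 4 genes per list with the smallest adjusted p over the DES comparisons (other genes named were chosen after their values were seen), and the 5 genes most like Kdr and Vegfa. The fit was tested on simulated data. Replicate numbers were checked for pairing: the correlation of deviations between same-numbered arrays was 0.00457 to 0.281, and all 3 pairs exceeded 0.1 only for DES against control in BN (0.138 to 0.238). Alternatives were another pseudocount, filter, normalization or fit, blocks, number sets, and each array left out in turn. The lists under other scalings and their median-scaled sums were added after the data were seen.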

Additional observations from a re-analysis of the deposited data

Results flagged for a closer look

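In 1 array of a group of 4 the signal stood apart for 2 of the 30 groups of 4 DES arrays and single genes that were examined (10 genes in 3 strains), where about 1 in 20 groups is flagged by chance. Vegfb on ACI DES 4 read 330.1 beside 558.2 to 579 on the other 3 arrays (gap over range 0.934). Flt1 on COP DES 4 read 38.8 beside 80.2 to 88.4 (gap over range 0.873). Both ratios exceeded Dixon's critical value for 4 samples.

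The response to DES differed between strains by a test of the difference itself for 4 genes. For ACI minus BN the difference of log2 changes was -1.42 for Kdr, -1.32 for Tek, -1.30 for Angpt1 and -1.29 for Flt1. For COP minus BN it was -0.90 for Kdr. Flt1 passed in its brightest probe set alone, and the other tested Flt1 probe set gave -0.14.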

How the results depend on the processing

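Of 144 member changes, 114 kept their side of the threshold and any called sign under all 21 removals of an array and under those of the 13 alternatives that covered their probe set. The 60th percentile filter left 5 of the 10 genes to test, and the median of a gene's probe sets covered the brightest probe sets only. No called change reversed. Changes never called were given no sign. Only the larger moves in the number of the 10 genes called are listed next, so a setting not named can still differ from the main count. For DES in ACI, for instance, the number was 5 with the 60th percentile filter and among numbers 1 and 2. It was 6 without a filter and with the median of a gene's probe sets. DES in ACI (7): 4 with quantile normalization, 2 with median centring and 2 among arrays numbered 3 and 4. DES in COP (2): 1 among numbers 3 and 4 and 1 with the median of a gene's probe sets. DES in BN (5): 3 with the 60th percentile filter (5 of the 10 tested), with only the groups compared, among numbers 1 and 2, and among 3 and 4. ACI against BN in controls (1): 0 without a filter, without the trend, with only the groups compared and among numbers 1 and 2. ACI against BN with DES (5): 3 with the 60th percentile filter and among numbers 3 and 4. ACI against COP with DES (0): 1, Tek, with only the groups compared, with the replicate block and with numbers 1 and 2 against 3 and 4 as a block. COP against BN with DES (3): 5 with either block. Response of ACI minus BN (4): 2 without a filter, with the 60th percentile filter, quantile normalization, median centring and among numbers 3 and 4, and 1 among numbers 1 and 2. Among numbers 3 and 4 Vegfa changed by 0.54 in ACI, 0.47 in COP and 0.44 in BN, none called. The cause was not tested, except that the stricter filter left 5 genes to test and the number sets fewer arrays.

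Leaving out 1 array at a time gave 3 to 7 for DES in ACI, 2 to 3 in COP, 3 to 6 in BN, 0 to 1 for ACI against BN in controls, 0 for ACI against COP and COP against BN in controls, 4 to 6 for ACI against BN with DES, 0 for ACI against COP with DES, 1 to 4 for COP against BN with DES, and 2 to 4, 0 and 1 for the responses of ACI minus BN, ACI minus COP and COP minus BN. For DES against control in BN the same-numbered arrays had correlations of 0.138, 0.196 and 0.238. The replicate block changed no call of these genes there (count 5). Same-numbered arrays were also correlated outside BN, for COP against BN with DES at 0.241, 0.149, 0.0586 and 0.196. There the replicate block moved the count from 3 to 5. The lowest correlation was 0.00457, for ACI against COP in controls. What arrays of the same number share was not tested. The dim Flt1, Angpt1, Angpt2 and Pecam1 are limited by signal over background.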
